A study of Homo sapiens with 12 samples.

Results

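Keratins are the intermediate filament proteins of epithelial cells, and the genes described here are all protein-coding genes named KRT with a number and at most one further letter, leaving out the keratin-associated families. This rule, which used no measured value, gave 55 genes of the 62696 gene identifiers counted. Keratin filaments form when an acidic type I keratin pairs with a basic type II keratin. Which pairs a cell makes follows its kind: KRT8 and KRT18, with KRT7 and KRT19, in simple and luminal epithelium, KRT5 and KRT14 in basal and myoepithelial cells, others in the layers of skin, cornea and oral lining, and a large set in hair and its inner root sheath. Breast carcinomas are commonly classed by luminal against basal keratins. By kind, 5 of the 55 genes were placed in a luminal or simple-epithelial class, 4 in a basal class, 19 in an epidermal and other stratified-epithelial class and 26 in a class of hair and inner root sheath keratins. KRT222, a keratin-like gene without a keratin type, was left outside the classes.

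RNA was sequenced from SKBR3 and MDA-MB-453, established human breast carcinoma lines that the study uses for the HER2 subtype, each as 3 untreated and 3 TWEAK-treated replicates (12 libraries). TWEAK is a ligand of the TNF family that acts through the receptor Fn14, the product of TNFRSF12A. According to the protocol in the labels, which is the same for both treatments, cells spent 8 h in Opti-MEM as starvation before 10 ng/ml TWEAK was added, the ligand was renewed after 24 h and treatment lasted 48 h; how untreated cells were handled is not said. The labels name no engineered allele, and each line is 1 culture line with its own table of counts, so that line, culture and table cannot be told apart. The study's methods call the replicates biological and say that cell line experiments were repeated on different days, but the labels tie no library to a day, and p-values measure the spread between these samples.

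Library totals lay between 24773003 and 35208304 counts. In both lines TWEAK replicate 2 stood apart from the other TWEAK replicates: the chi-square statistic of its counts against theirs, per degree of freedom, was 21.1 and 23.8 in SKBR3, where other replicate pairs gave 1.78 to 5.74, and 10.2 and 5.31 in MDA-MB-453, where other pairs gave 2.09 to 2.85. Results that changed most without this library are given with and without it. The labelled cell type was checked by markers. EPCAM lay at 310 ± 6.89 and 383 ± 5.33 CPM (counts scaled by library size and normalised; SD, n = 3) in untreated SKBR3 and MDA-MB-453, and ERBB2, the HER2 gene, at 7578 ± 285 and 890 ± 16.1 CPM. CDH1, the epithelial cadherin, was at 0.162 ± 0.114 CPM in untreated SKBR3 and 47.6 ± 1.51 in untreated MDA-MB-453. Of 4 leukocyte markers the summed level was at most 1.44 CPM in any library, and of 6 fibroblast markers COL1A1 made up most of a sum of 17.6 to 21.0 CPM in SKBR3 and 106.6 to 122.8 CPM in MDA-MB-453.

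The keratin genes lie in a pair of gene clusters. On chromosome 12 (hg38, GENCODE 44) 27 of them, the 26 type II genes and the type I gene KRT18, lie between positions 52168996 and 52952906; on chromosome 17 the other 28, 27 type I genes and KRT222, lie between 40654665 and 41624842. Genes are named below in relation to this order because genes whose counts moved with TWEAK in SKBR3 lay side by side. Among these were KRT73, KRT2, KRT3 and KRT4 of the chromosome 12 cluster. Their promoters are therefore shown, each as the 250 bases before the gene's start, 5′ to 3′, from RefSeq on GRCh38.p14. Capitals mark matches, on either strand, to a loose NF-κB site (GGG and CC with any 5 bases between them), TGANTCA (AP-1), GCCNNNGGC (AP-2) or TATAAA, the TATA box in its plainest form.
KRT2 (chr12:52652212-52652461, strand -): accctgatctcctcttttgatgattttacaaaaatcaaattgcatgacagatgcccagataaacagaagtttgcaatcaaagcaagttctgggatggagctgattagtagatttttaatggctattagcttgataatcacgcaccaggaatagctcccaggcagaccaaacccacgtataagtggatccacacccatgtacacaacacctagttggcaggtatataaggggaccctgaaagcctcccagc
KRT73 (chr12:52618560-52618809, strand -): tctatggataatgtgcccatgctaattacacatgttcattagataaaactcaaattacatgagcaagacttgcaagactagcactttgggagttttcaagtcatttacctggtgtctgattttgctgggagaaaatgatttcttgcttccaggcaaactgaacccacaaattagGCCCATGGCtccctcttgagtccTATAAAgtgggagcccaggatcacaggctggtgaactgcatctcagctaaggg
KRT3 (chr12:52796118-52796367, strand -): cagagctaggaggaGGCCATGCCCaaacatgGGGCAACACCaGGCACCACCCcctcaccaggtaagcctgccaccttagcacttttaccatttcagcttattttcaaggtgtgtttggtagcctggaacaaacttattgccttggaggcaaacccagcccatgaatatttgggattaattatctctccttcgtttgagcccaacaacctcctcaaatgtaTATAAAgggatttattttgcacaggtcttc
KRT4 (chr12:52814117-52814366, strand -): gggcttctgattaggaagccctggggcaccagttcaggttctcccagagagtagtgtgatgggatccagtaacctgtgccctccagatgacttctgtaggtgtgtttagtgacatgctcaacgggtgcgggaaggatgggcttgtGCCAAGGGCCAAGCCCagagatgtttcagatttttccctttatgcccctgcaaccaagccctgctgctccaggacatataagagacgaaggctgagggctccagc
The KRT2 promoter held none of these letters. That of KRT5 is not shown because the RefSeq start lies within the gene as GENCODE draws it. In the KRT73 promoter there was an AP-2 match at 76 bases and a TATA match at 53 bases. KRT3 had 3 NF-κB matches, at 236, 219 and 208 bases, and a TATA match at 30 bases. In KRT4 the NF-κB matches at 100 and 99 bases overlapped each other and the AP-2 match at 105 bases. A promoter entry was found for 34 of the 55 genes, among them neither KRT7 nor KRT19. With the first promoter listed for each gene, here and for all genes, 13 of the 34 had the NF-κB letters (14 when every listed promoter was used), against 53.7% of 27305 promoters of this length, 5 had the AP-2 letters, against 19.7%, and 0 had the AP-1 letters, against 6.60%. The TATA letters were found in 21 of the 34, against 11.1% of all promoters. The counts include promoters whose RefSeq start lies within the gene, among them those of KRT5, KRT8 and KRT85, each with the NF-κB letters. These matches describe the letters and not the binding of a factor.

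Most keratin genes were silent or nearly so. A group in which no library held more than 3 counts of a gene was taken as at the floor of detection, which stands for 0.0818 to 0.125 CPM depending on the library. By this measure 29 of the 55 genes were at the floor in untreated SKBR3 and 25 in TWEAK-treated SKBR3, against 39 in both groups of MDA-MB-453. In all 4 groups 24 genes were at the floor, 18 of them hair and inner root sheath keratins. The other 6 were KRT1, KRT6A, KRT6B, KRT6C, KRT12 and KRT76 of the stratified class. Of these 24 genes, 5 had no count in any of the 12 libraries. Detection covers counting error only.

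At the upper end, a mean of at least 100 CPM was reached by 7 genes in each SKBR3 group and by 4 in each MDA-MB-453 group, and a mean of at least 1 CPM by 15 genes in untreated and 16 in TWEAK-treated SKBR3 and by 6 in each group of MDA-MB-453. Levels are compared between genes as CPM per kilobase of the canonical transcript, and the order depends on this length. In untreated SKBR3, KRT8 (2773 ± 132 CPM per kilobase, SD, n = 3) and KRT19 (2690 ± 149) were highest and did not differ beyond their spread. They were followed by KRT18 (1548 ± 114) and KRT7 (1504 ± 81.1), which did not differ from each other either. These 4 are the keratins of simple epithelium. With the length of all annotated exons instead, a choice made after seeing the data, KRT19 led alone in untreated SKBR3 (1601 CPM per kilobase), followed by KRT8 (719), KRT18 (713) and KRT7 (611). Below them came KRT81 (270 ± 13.4 CPM per kilobase), a hair cortex keratin, then KRT4 (178 ± 4.58), a keratin of moist stratified lining, then KRT80 (58.4 ± 2.57) and the suprabasal keratin KRT10 (38.4 ± 0.422). KRT15, a basal keratin, stood at 7.86 ± 0.291 CPM per kilobase. In untreated MDA-MB-453 the order was KRT19 (463 ± 9.81 CPM per kilobase), KRT18 (403 ± 7.09), KRT8 (334 ± 5.29) and KRT7 (248 ± 10.9), with replicate values that did not overlap between neighbours. With the length of all annotated exons KRT7 (100.6) stood above KRT8 (86.5) in that line, below KRT19 (275) and KRT18 (186). KRT10 (9.56 ± 0.461) and KRT80 (1.33 ± 0.108) followed at a distance, and every other keratin lay under 1 CPM per kilobase. The basal pair was weak in both lines: KRT14 had at most 5 counts in any library, and KRT5 had none in untreated MDA-MB-453.

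**Figure D1:**
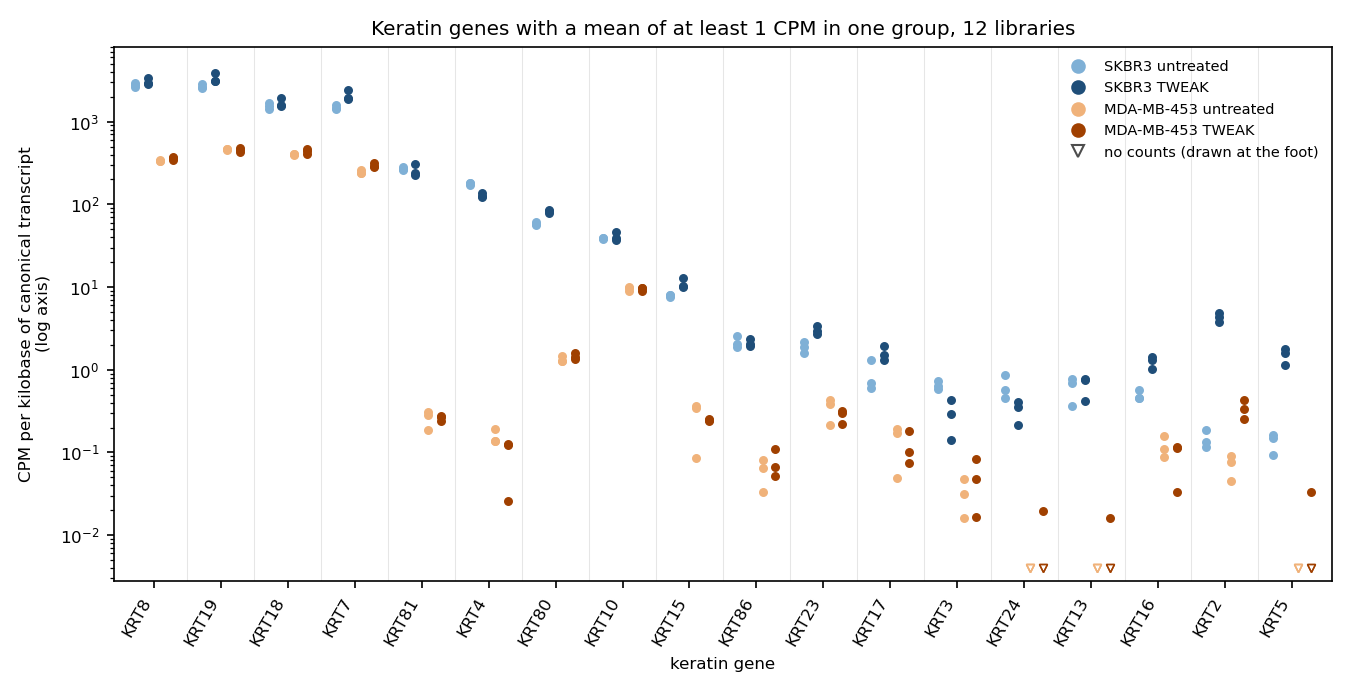
Levels of the 18 keratin genes with a mean of at least 1 CPM in one group, as CPM per kilobase on a log axis, with 1 point per library and open triangles for libraries without counts. The 4 simple-epithelial keratins KRT8, KRT19, KRT18 and KRT7 lead in both lines, KRT81 and KRT4 stand at 270 and 178 CPM per kilobase in untreated SKBR3 and at 0.261 and 0.155 in untreated MDA-MB-453, and KRT2 and KRT5 move most with TWEAK in SKBR3.

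The untreated lines were compared first, to give the keratin pattern that TWEAK met. A gene was called, here and throughout, when its p from edgeR's quasi-likelihood test, adjusted by Benjamini-Hochberg, was 0.1 or lower. By this rule all 18 keratins that could be tested differed, 17 being higher in SKBR3 and 1 lower; of all 16315 genes tested 87.2% differed, 44.8% being higher in SKBR3 and 42.4% lower. The replicate groups were apart in all 18, against 85.3% of all genes. The median log2 difference of the 18 keratins was 3.11, beside 0.03 over all genes tested. Of the 18, 7 had passed the filter on low counts through SKBR3 alone and 1 through MDA-MB-453 alone, so that these 8 had to differ. In bulk RNA, fewer cells with a transcript and less of it per cell cannot be told apart.

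The widest gaps were those of KRT4 and KRT81. KRT4 was counted 10265, 9282 and 9385 times in untreated SKBR3 and 11, 8 and 8 times in untreated MDA-MB-453, a log2 difference of 10.15 ± 0.28 (SE; edgeR adjusted p = 2.55e-32). KRT81 was counted 13872, 12444 and 13314 times against 16, 10 and 15 times, a log2 difference of 10.01 ± 0.23 (edgeR adjusted p = 4.36e-32). Both genes were therefore strong in one line and close to the floor in the other. KRT81 has near-identical neighbours in KRT83 and KRT86, which were higher in SKBR3 by 3.15 ± 0.54 and 5.13 ± 0.47 on the log2 scale, and how reads were divided among these genes is uncertain. KRT83 and KRT86 had passed the filter on low counts through SKBR3 alone.

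The other stratified keratins tested were all higher in SKBR3, by unequal amounts. KRT80, a type II keratin of many epithelia, was higher by 5.47 ± 0.078 on the log2 scale, KRT23 by 2.45 ± 0.23, KRT16 by 2.03 ± 0.40 and KRT10 by 2.01 ± 0.053. KRT3, a corneal keratin, had 115 counts in all in untreated SKBR3 and 6 in MDA-MB-453, a ratio of normalised counts of 20.5 (95% counting interval 9.14 to 57.1). KRT24 and KRT13 had no count in untreated MDA-MB-453 and were at least 10.7-fold and 9.45-fold higher in SKBR3, taking 3 counts per library as the floor. With these bounds the median log2 difference of the 8 stratified keratins tested was 3.33, and 4.87 with fitted values. Of these 8, 4 (KRT3, KRT13, KRT16 and KRT24) had passed the filter on low counts through SKBR3 alone. These 4 had to be higher there, and the median rests partly on them. Of the basal keratins, KRT15 was higher in SKBR3 by 4.88 ± 0.28 on the log2 scale and KRT17 by 2.67 ± 0.47. KRT17 too had passed this filter through SKBR3 alone, so that it had to be higher.

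Among the simple-epithelial keratins, KRT8 was 8.35-fold higher in SKBR3 (log2 difference 3.06 ± 0.039, edgeR adjusted p = 2.76e-28), KRT7 6.10-fold, KRT19 5.84-fold and KRT18 3.85-fold. KRT8 and KRT18, the partners of the first filament of simple epithelium, were thus not shifted alike: the ratio of KRT8 to KRT18, per kilobase, was 1.79 ± 0.048 in untreated SKBR3 and 0.827 ± 0.0037 in untreated MDA-MB-453, without overlap (two-sided exact permutation p = 0.1, the smallest that 3 against 3 samples can give). The only keratin of the 18 higher in MDA-MB-453 was KRT32, a hair cuticle keratin, with 18, 16 and 24 counts against 2, 8 and 3 in SKBR3 (log2 difference -2.02 ± 0.47, edgeR adjusted p = 7.17e-05). It was low in both lines and had passed the filter on low counts through MDA-MB-453 alone.

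In SKBR3 TWEAK raised some keratins and lowered others. Of the 55 genes 20 could be tested, and 9 rose and 2 fell; of all 15661 genes tested 10.4% were called, 6.6% higher and 3.82% lower. The groups of replicates did not overlap in 12 of the 20 genes, against 26.5% of all genes. KRT5 and KRT32 had passed the filter on low counts through the TWEAK group alone, so that these 2 had to differ. The filter asks for its minimum in as many libraries as a group holds. By their lower group alone, KRT2 (8, 8 and 11 untreated counts) and KRT3 (8, 25 and 16 treated counts) would not have passed. The filter thus favoured the direction of these genes too. The median log2 fold change of the 20 was 0.23, beside -0.01 over all genes tested. By class, 2 of 3 basal keratins tested rose (KRT5, KRT15), 4 of 9 stratified keratins rose (KRT2, KRT16, KRT23, KRT80) and 2 fell (KRT3, KRT4), 1 of 4 hair keratins rose (KRT32), and 2 of 4 luminal keratins rose (KRT7, KRT19). Without TWEAK replicate 2, 15 keratins were called, 10 higher and 5 lower, the 11 genes among them, and of all genes 17.4% were called, 9.93% higher and 7.45% lower. Activity of the ligand could be read from NFKB2, an NF-κB subunit gene that NF-κB itself induces, which rose by 1.79 on the log2 scale (edgeR adjusted p = 9.34e-08). Of 4 endothelial markers, with a summed level of 3.93 to 5.14 CPM in untreated and 6.43 to 7.72 CPM in treated libraries, CDH5 rose (1.74 ± 0.166 to 4.21 ± 0.766 CPM). VWF did not pass, at a mean of 2.86 CPM untreated and 2.68 CPM treated, and PECAM1 and KDR were at the floor in both groups; the part of such cells in the keratin results was not tested. The receptor gene TNFRSF12A was at 66.3 ± 5.81 CPM before and 85.6 ± 8.76 after treatment (log2 fold change 0.36, edgeR adjusted p = 0.0322).

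Among the genes that passed the filter on low counts, the largest change was that of KRT2, the type II keratin of the upper epidermal layers. It was counted 8, 8 and 11 times in the untreated and 291, 267 and 221 times in the TWEAK-treated libraries. In normalised terms it went from 0.358 ± 0.0862 to 10.6 ± 1.28 CPM, a log2 fold change of 4.87 ± 0.28 (29.3-fold, edgeR adjusted p = 9.34e-08). The gene was thus near the floor before and clearly expressed after treatment in all 3 replicates, although at 4.31 CPM per kilobase it stayed far below KRT8. Its usual partner in epidermis, KRT10, did not pass the test, with 82.3 ± 0.904 CPM before and 87.5 ± 10.6 after (log2 fold change 0.08 ± 0.085, edgeR adjusted p = 0.653).

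KRT5, the type II keratin of basal cells, was next among the genes that passed this filter. It had 10, 5 and 8 counts in untreated and 99, 90 and 61 counts in TWEAK-treated libraries, or 0.299 ± 0.0809 and 3.39 ± 0.753 CPM. This was a log2 fold change of 3.46 ± 0.35 (11.0-fold, edgeR adjusted p = 1.84e-05), and each treated library lay far above each untreated one. KRT14, which pairs with KRT5 in basal cells, was too low to be tested, with 6 counts in all before and 11 after. The summed level of 6 myoepithelial or basal markers was 2.80 to 3.09 CPM in untreated and 8.60 to 9.42 CPM in treated SKBR3 libraries. KRT5 itself is among the 6, at means of 0.299 and 3.39 CPM, so this sum is not separate from its rise. Of the other markers, ACTA2 rose by 1.49, TP63 by 1.96 and OXTR by 0.85 on the log2 scale. Like KRT5, TP63 had passed the filter on low counts through the TWEAK group alone, so that it had to differ. MYH11, a defining smooth muscle myosin, had at most 4 counts in any library, and the part of such cells in these results was not tested.

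Of the other basal keratins, KRT15 rose from 13.7, 12.9 and 13.8 to 17.6, 22.1 and 17.2 CPM (log2 fold change 0.49 ± 0.11, edgeR adjusted p = 0.0165). KRT17, a keratin of basal cells and of stressed epidermis, had 2.01, 1.04 and 0.908 CPM before and 2.31, 2.97 and 2.0 after; the groups overlapped by the first untreated replicate, and the log2 fold change of 0.85 ± 0.29 did not pass (edgeR adjusted p = 0.114). It passed in 7 of 13 other settings, with an adjusted p of 0.00204 to 0.362 over all of them: by DESeq2, without the filter on low counts, in one fit of all 12 libraries, with a replicate block, and without untreated replicate 1 (log2 fold change 1.31, edgeR adjusted p = 0.0166) or TWEAK replicate 2 or 3. KRT16, its neighbour on chromosome 17 and a keratin of wounded and hyperproliferative epidermis, rose from 0.755, 0.745 and 0.949 to 2.18, 2.37 and 1.71 CPM, a log2 fold change of 1.35 ± 0.22 (edgeR adjusted p = 0.00242). KRT6A, KRT6B and KRT6C, which pair with KRT16, were at the floor in every group. KRT14, KRT16 and KRT17 resemble each other closely in sequence, so that the division of reads among them is uncertain.

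The stratified keratins KRT80 and KRT23 rose by less than KRT2. KRT80 went from 217, 226 and 237 to 330, 307 and 323 CPM, groups that did not overlap (log2 fold change 0.50 ± 0.058, edgeR adjusted p = 0.000283). KRT23, a type I keratin found in several carcinomas, went from 4.17, 3.48 and 4.83 to 7.36, 6.5 and 5.93 CPM (log2 fold change 0.66 ± 0.14, edgeR adjusted p = 0.0145). In both genes the lowest treated replicate was above the highest untreated one. KRT32 of the hair class rose from 2, 8 and 3 to 13, 23 and 16 counts, a log2 fold change of 2.01 ± 0.52 (edgeR adjusted p = 0.0232). Its call rested on few counts and was lost without untreated replicate 1 or 3. Over all settings tried its log2 fold change ranged from 1.61 to 2.81.

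KRT4 and KRT3 went the other way. KRT4, counted 10265, 9282 and 9385 times before, was counted 6454, 7345 and 6497 times after treatment, or 380 ± 9.81 and 276 ± 17.2 CPM (log2 fold change -0.47 ± 0.063, edgeR adjusted p = 0.000687). KRT13, with which KRT4 pairs in oral and oesophageal lining, was at 1.19, 0.621 and 1.32 CPM before and 1.29, 1.32 and 0.710 after, and its log2 fold change was 0.08 ± 0.32 (edgeR adjusted p = 0.923). KRT3 was counted 38, 36 and 41 times before and 8, 25 and 16 times after, a log2 fold change of -1.18 ± 0.32 (edgeR adjusted p = 0.0455). The groups of KRT3 did not overlap, but the call was lost when untreated replicate 1, 2 or 3 or TWEAK replicate 1 was left out, with an adjusted p of up to 0.162. KRT24, a type I keratin, was lower in each treated library (0.404, 0.762 and 0.668 CPM, against 0.863, 1.08 and 1.61) without passing the test (log2 fold change -0.94 ± 0.33, edgeR adjusted p = 0.12). Without TWEAK replicate 2 it passed, at -1.13 (edgeR adjusted p = 0.031), as it did without the filter on low counts, in one fit of all 12 libraries and with a replicate block.

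**Figure D2:**
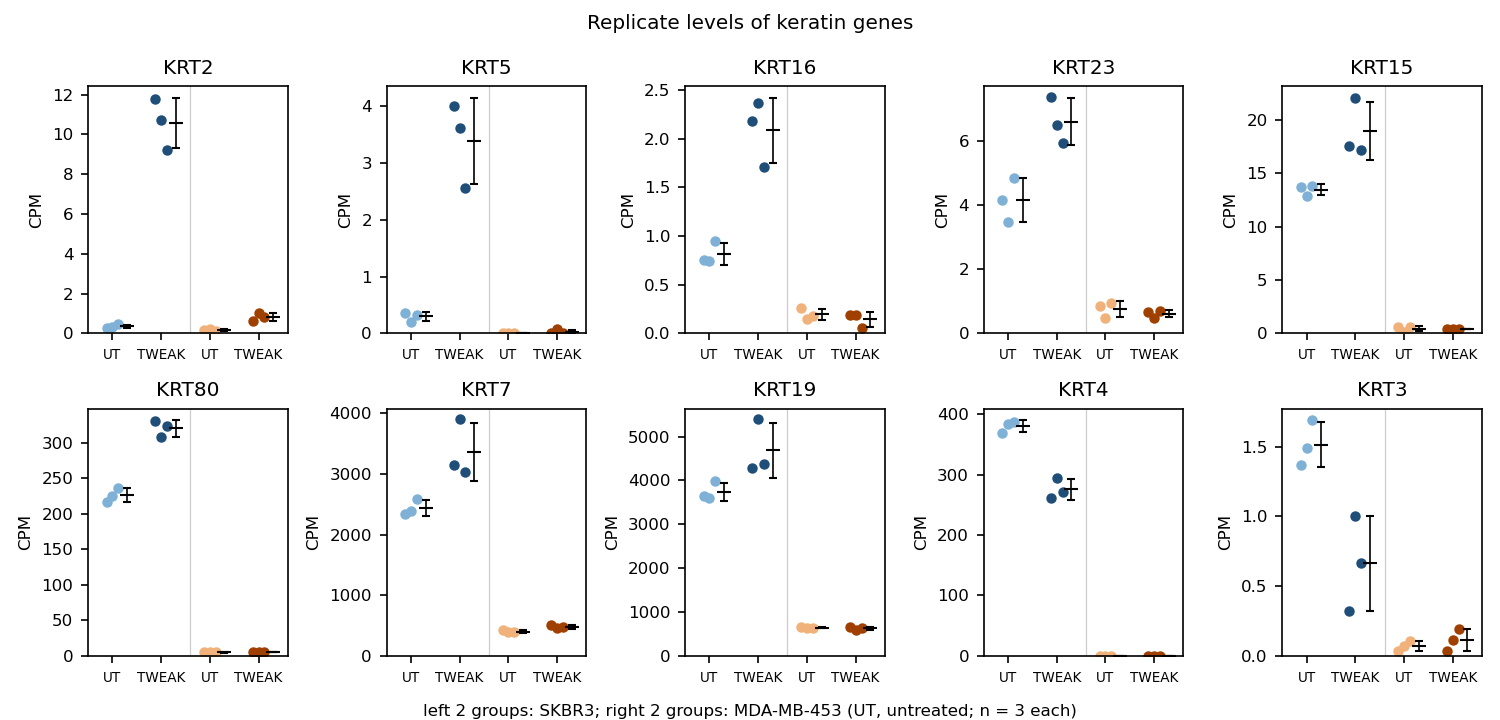
Normalised levels (CPM, linear axes from 0) of the 10 keratins other than KRT32 that passed the test in SKBR3, with 1 point per library and mean ± SD beside each group of 3. KRT2 and KRT5 rise from under 0.5 CPM, KRT7 and KRT19 rise from means of 2444 and 3739 CPM with TWEAK replicate 2 highest, KRT4 and KRT3 fall, and in MDA-MB-453 KRT2 and KRT7 rise.

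Among the luminal keratins that could be tested KRT7 changed most. In SKBR3 it went from 2341, 2399 and 2593 to 3147, 3906 and 3039 CPM (log2 fold change 0.46 ± 0.093, edgeR adjusted p = 0.0114). KRT19 went from 3640, 3599 and 3978 to 4288, 5402 and 4365 CPM (log2 fold change 0.32 ± 0.091, edgeR adjusted p = 0.0608). In both genes TWEAK replicate 2 was highest, and without it the log2 fold changes were 0.34 and 0.21. The KRT19 call was lost without untreated replicate 1 or 2 and with a replicate block (edgeR adjusted p = 0.105), with an adjusted p of up to 0.247 over all settings tried. KRT8 and KRT18 did not pass. KRT8 had 4735, 4907 and 5201 CPM before and 5097, 6057 and 5199 after (log2 fold change 0.13 ± 0.077, edgeR adjusted p = 0.377), and KRT18 had 2032, 2174 and 2355 CPM before and 2208, 2762 and 2253 after (0.13 ± 0.092, edgeR adjusted p = 0.475). For both the groups overlapped, and without TWEAK replicate 2 the log2 fold changes were 0.054 and 0.025. The ratio of KRT7 to KRT8, per kilobase, was 0.542 ± 0.0052 before and 0.676 ± 0.033 after treatment, without overlap (exact permutation p = 0.1, the smallest possible). KRT20, the intestinal and urothelial keratin, had 5 counts in all before and 10 after.

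KRT8 and KRT18 are neighbours read from opposite strands and share 525 exonic bases, 17.1% of KRT18 and 7.63% of KRT8, and whether counting used the strand is not stated. KRT7 shares 7.05% of its exonic bases with its antisense gene KRT7-AS, which had at most 20 counts in any library. Many processed copies of KRT8 and KRT18 lie elsewhere in the genome. Counts on 51 annotated KRT8 pseudogenes came to 1.36% of the KRT8 counts in untreated and 1.31% in treated SKBR3, and to 2.15% and 1.98% in MDA-MB-453. For 67 KRT18 pseudogenes the share was 0.447% and 0.421%, and 0.691% and 0.670%. The shares of treated and untreated libraries were close.

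The hair cortex keratins of SKBR3 showed no call. KRT81 had 499, 515 and 549 CPM before and 465, 589 and 433 after (log2 fold change -0.08 ± 0.10, edgeR adjusted p = 0.745). TWEAK replicate 2 was the highest of the 6 and the other treated replicates the lowest 2; without it the log2 fold change was -0.22 (edgeR adjusted p = 0.00185). KRT86 (log2 fold change -0.04 ± 0.15) and KRT83 (-0.21 ± 0.33) did not pass either, with overlapping groups.

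Genes below the filter on low counts were not tested here, and the counts of those above the floor are given. KRT73, an inner root sheath keratin, had 0, 1 and 0 counts before and 12, 14 and 3 after, a ratio of normalised counts of 30.0 (95% counting interval 4.98 to 1226). Its antisense gene KRT73-AS1, which overlaps 37.8% of the exonic bases of KRT73, had 2 counts in TWEAK replicate 2 and none in the other SKBR3 libraries. KRT77, a keratin of sweat gland ducts, had no count before and 9, 5 and 0 after, at least 1.59-fold higher with 3 counts per library as the floor. KRT79, a keratin of the hair follicle opening, went from 35 to 12 counts in all (ratio 0.355, 95% counting interval 0.168 to 0.700), and KRT9, the keratin of palms and soles, from 33 to 13 (0.408, 0.197 to 0.796). Without the filter on low counts KRT73, KRT77 and KRT79 passed the test, and KRT9 did not (edgeR adjusted p = 0.131). The remaining genes below the filter but above the floor, KRT14, KRT20, KRT27, KRT38, KRT40, KRT78 and KRT222, had at most 15 counts in any library.

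When the keratins were set in genomic order, the changes in SKBR3 on chromosome 12 ran in stretches, a description made after the values were seen and carrying no test. The 8 genes from KRT5 to KRT77 cover 189 kb (chr12:52514575-52703524, all on the minus strand). The 4 of them with at least 10 counts over both groups, KRT5, KRT73, KRT2 and KRT77, were all higher with TWEAK, and the other 4, KRT71, KRT74, KRT72 and KRT1, had at most 3 counts per group. KRT73 and KRT77 reached 10 counts through the TWEAK group alone (29 and 14 counts, against 1 and 0), so that these had to be higher. Beyond KRT76, which was at the floor, the 4 genes KRT3, KRT4, KRT79 and KRT78 (chr12:52789685-52849092, 59.4 kb) were all lower with TWEAK, with ratios of 0.441, 0.726, 0.355 and 0.690. The interval of KRT78 (0.358 to 1.30) included 1. KRT8 and KRT18, which follow, did not pass the test. On chromosome 17, of the genes that rose, KRT15 and KRT19 are neighbours, and KRT23, KRT32 and KRT16 lie apart from these and from each other, with keratins between them that did not pass or were not tested. In MDA-MB-453 most genes of both stretches had too few counts to be set beside these.

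**Figure D3:**
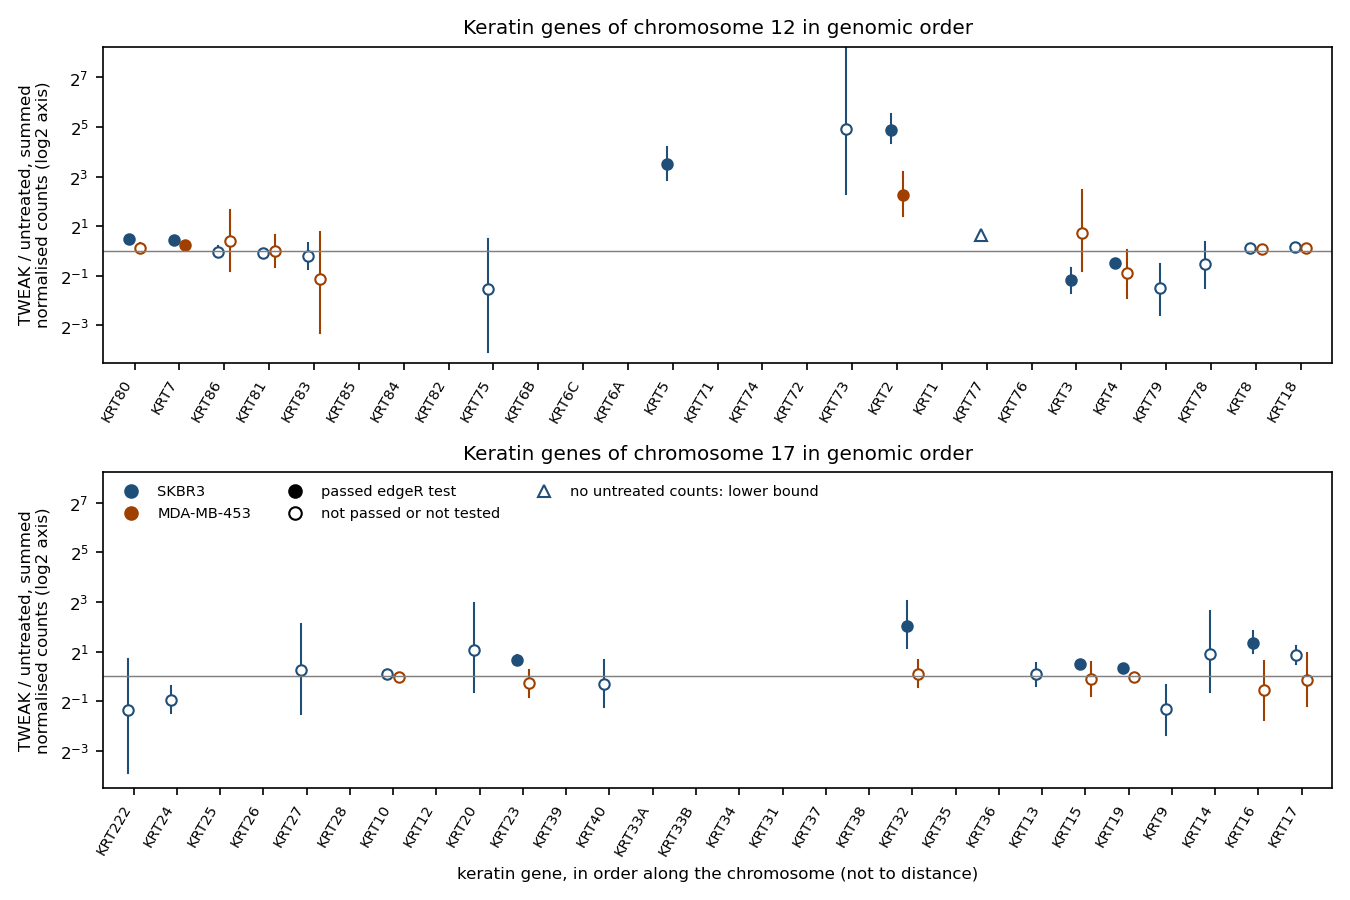
Ratio of summed normalised counts, TWEAK against untreated, for keratins with at least 10 counts over both groups, in genomic order and on a log2 axis; bars are 95% counting intervals, which leave out the spread between replicates (that of KRT73 runs off the axis), filled points passed edgeR's test and the triangle is the lower bound for KRT77. In SKBR3 the genes from KRT5 to KRT77 lie above 1 and those from KRT3 to KRT78 below it, and in MDA-MB-453 KRT2 and KRT7 are the filled points. KRT73 and KRT77 reached 10 counts through the SKBR3 TWEAK group alone.

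In MDA-MB-453, of 11 keratins tested 2 rose with TWEAK, KRT2 and KRT7, and 0 fell; of all 14929 genes tested 1.49% were called, 1.29% higher and 0.208% lower. DESeq2 also called 0 keratins lower, and 0 had an unadjusted p under 0.05 in edgeR in that direction. The groups of replicates did not overlap in 3 of the 11, against 15.1% of all genes. Without untreated replicate 2 or 3 the count was 1 gene, with 0.864% and 0.863% of all genes called. Without TWEAK replicate 2 it was 4, with 13.8% of all genes called. The median log2 fold change was 0.10, beside 0.00 over all genes tested, and KRT2 had passed the filter through the TWEAK group alone. NFKB2 rose here by 1.67 on the log2 scale (edgeR adjusted p = 3.01e-10).

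KRT2 had 5, 6 and 3 counts before and 16, 28 and 30 after treatment in MDA-MB-453, or 0.172 ± 0.0557 and 0.826 ± 0.215 CPM. The log2 fold change was 2.24 ± 0.42 (4.72-fold, edgeR adjusted p = 0.00453), and the groups did not overlap. KRT2 was thus higher with TWEAK in 6 of 6 treated libraries over the lines when set against the untreated libraries of the same line. KRT7 went from 423, 394 and 390 to 509, 455 and 474 CPM, a log2 fold change of 0.25 ± 0.046 (edgeR adjusted p = 0.0101). This call was lost without untreated replicate 2 or 3 and with all 12 libraries in one fit. The edgeR adjusted p reached up to 0.332 over all settings tried.

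The other luminal keratins of MDA-MB-453 were not called. KRT8 had 606, 589 and 590 CPM before and 662, 610 and 642 after, which did not overlap, with a log2 fold change of 0.10 ± 0.038 (edgeR adjusted p = 0.351). KRT18 had 581, 561 and 567 CPM before and 660, 572 and 617 after (log2 fold change 0.11 ± 0.046, edgeR adjusted p = 0.394). Treated replicate 2 was the lowest of the treated replicates in both, and without it both passed, at 0.13 and 0.16 on the log2 scale (edgeR adjusted p = 0.011 and 0.00288). With a replicate block they passed too, at 0.10 and 0.11 (edgeR adjusted p = 0.0488 and 0.0437). Of all genes, 13.8% were called without that library and 5.99% with the block, against 1.49% in the main fit. KRT19 had 655, 628 and 646 CPM before and 659, 600 and 634 after (log2 fold change -0.03 ± 0.040, edgeR adjusted p = 0.837). KRT80, KRT10, KRT23, KRT32, KRT15 and KRT81 were tested and not called, with log2 fold changes from -0.28 (KRT23) to 0.13 (KRT80). KRT5 had no count except 2 in TWEAK replicate 2, and KRT73 had none before and 3, 3 and 0 after.

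The difference between the TWEAK responses of the lines was then tested as an interaction term, with the 12 libraries that also gave the comparisons above. Of 20 keratins tested, 4 responded less in MDA-MB-453 than in SKBR3 and 0 more; of all 17201 genes tested 3.37% differed, 2.36% in the first direction and 1.01% in the other. In the other direction DESeq2 called 0 keratins and 1 had an unadjusted p under 0.05 in edgeR. KRT2 rose in both lines but by 2.64 ± 0.51 less on the log2 scale in MDA-MB-453 (edgeR adjusted p = 0.0145). For KRT32 the difference was -1.90 ± 0.57 (edgeR adjusted p = 0.0806), for KRT80 -0.37 ± 0.11 (0.0886) and for KRT19 -0.35 ± 0.10 (0.0939). The last 3 were called in SKBR3 and not in MDA-MB-453, and each was lost under several settings: the count of 4 became 1 without untreated SKBR3 replicate 1, without untreated MDA-MB-453 replicate 1 or 3 and with TWEAK replicate 2 or 3 of that line left out, and 2 without SKBR3 untreated replicate 2 or TWEAK replicate 3. Without untreated MDA-MB-453 replicate 2 none of the 4 was called, KRT2 included, and KRT23 was the 1 call. Over these left-out libraries 2.24% to 2.9% of all genes differed. For KRT7 the difference of -0.21 ± 0.11 did not pass (edgeR adjusted p = 0.537). KRT5 gave -0.94 (edgeR adjusted p = 0.944), a test that says little with next to no counts in MDA-MB-453, and KRT16, at -1.88 ± 0.59, did not pass (0.124). DESeq2 also called 4, KRT16 among them (adjusted p = 0.0917), and gave no adjusted p for KRT32.

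As a share of the library, keratin genes took 1.35%, 1.39% and 1.48% of the counts in untreated SKBR3 and 1.51%, 1.81% and 1.51% with TWEAK. The groups did not overlap (two-sided exact permutation p = 0.1, the smallest possible), and TWEAK replicate 2 was highest; without it the mean difference of 0.204 percentage points was 0.103. In MDA-MB-453 the share was 0.240%, 0.231% and 0.231% before and 0.265%, 0.237% and 0.250% after, with overlap (exact permutation p = 0.2). Luminal keratins made up 91.5 ± 0.14% of keratin counts in untreated and 92.8 ± 0.28% in treated SKBR3, and 98.7% in both groups of MDA-MB-453.

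The balance of the 2 keratin types was taken as the ratio of summed levels per kilobase, type II over type I. It was 1.12 ± 0.016 before and 1.09 ± 0.022 after TWEAK in SKBR3, with overlap (exact permutation p = 0.3). In MDA-MB-453 it was 0.665 ± 0.011 before and 0.728 ± 0.0088 after, without overlap (exact permutation p = 0.1, the smallest possible). The level of this ratio depends on the transcript lengths used: with all annotated exons it was 0.759 untreated and 0.729 treated in SKBR3, then without overlap, and for MDA-MB-453 it was 0.401 untreated and 0.447 treated. Within both lines the ratio of the type II keratin KRT7 to the type I keratin KRT19, per kilobase, was higher with TWEAK, going in SKBR3 from 0.559 ± 0.010 to 0.614 ± 0.017, and for MDA-MB-453 cells from 0.535 ± 0.018 to 0.650 ± 0.010, without overlap in either (exact permutation p = 0.1, the smallest possible). The ratio of KRT8 to KRT18 went from 1.79 to 1.80 in SKBR3 cells, and from 0.827 to 0.821 in the other line, with overlap in both lines.

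**Figure D4:**
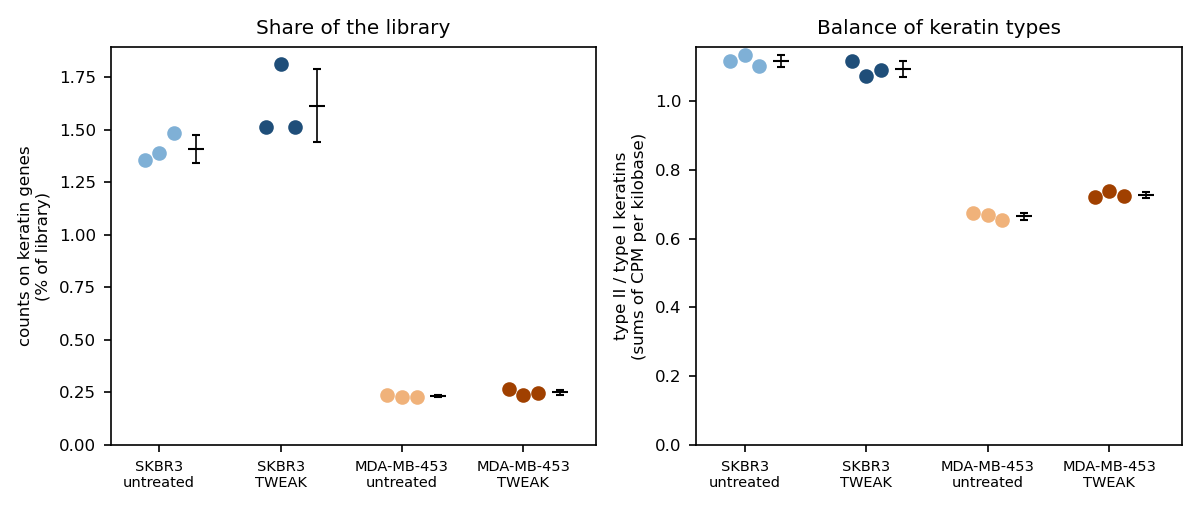
Share of each library's counts on the 55 keratin genes (%, left) and ratio of type II to type I keratins as sums of CPM per kilobase (right), with 1 point per library and mean ± SD of 3. The share is 1.35% to 1.81% in SKBR3 and 0.231% to 0.265% in MDA-MB-453, and the ratio is 1.07 to 1.13 in SKBR3 and 0.653 to 0.737 in MDA-MB-453.

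Genes that work with keratins were read from 4 lists. Of 19 genes of desmosomes and plakins, which anchor keratin filaments at the membrane, 15 were tested in SKBR3 and 1 rose, against 6.6% of all genes, namely PERP (135 ± 1.62 to 161 ± 1.44 CPM, log2 fold change 0.24, edgeR adjusted p = 0.0177), with a median of 0.10. In the other direction edgeR and DESeq2 called 0, and 1 had an unadjusted p under 0.05. Of 16 other intermediate filament genes, lamins and nestin among them, 8 were tested in SKBR3 and 0 were called by edgeR or DESeq2, against 10.4% of all genes by edgeR, with 2 at an unadjusted p under 0.05 (19.7% of all genes) and a median log2 fold change of 0.04. Vimentin (VIM), the filament of mesenchymal cells, stayed at or under 0.441 CPM in every library.

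Of 22 genes of the cornified envelope and late epidermal differentiation, only 4 could be tested in SKBR3, and 2 rose, against 6.6% of all genes. IVL, the envelope protein involucrin, went from 7.32 ± 0.235 to 24.3 ± 1.37 CPM (log2 fold change 1.73 ± 0.085, edgeR adjusted p = 4.15e-07). CALML5, a calcium-binding protein of differentiating keratinocytes, went from 0.858 ± 0.123 to 3.02 ± 0.612 CPM (1.81 ± 0.23, edgeR adjusted p = 0.000324). LORICRIN and FLG, the envelope genes of the latest stage, had no count in either group of SKBR3. TGM1, the transglutaminase that cross-links the envelope, did not pass, at 64.2 ± 2.75 CPM before and 66.8 ± 4.90 after.

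Of 18 transcription factors that act on keratin genes, all were tested in SKBR3, and 4 rose and 1 fell, against 6.6% and 3.82% of all genes, with a median log2 fold change of -0.02. DESeq2 called 3 higher and 0 lower. OVOL2, a repressor that keeps the epithelial state, rose from 12.6 ± 0.871 to 19.7 ± 0.919 CPM (log2 fold change 0.65, edgeR adjusted p = 0.000559). KLF4, a factor of epidermal differentiation that shares 9.75% of its exonic bases with an antisense transcript, rose by 0.28 (edgeR adjusted p = 0.0264) and FOXN1, a factor of hair and nail keratinocytes, by 0.90 (edgeR adjusted p = 0.0856). TP63, the master factor of basal epithelium, is named although it stayed below 1 CPM, a choice made after its values were seen. It went from 0.170 ± 0.0419 to 0.682 ± 0.221 CPM (log2 fold change 1.96 ± 0.45, edgeR adjusted p = 0.0103). With at most 5 counts in an untreated library, TP63 had passed the filter on low counts through the TWEAK group alone. This gene, 1 of the 4 that rose, therefore had to differ. MSX2, a homeobox factor, fell by 0.21 on the log2 scale (edgeR adjusted p = 0.094). GATA3 and TFAP2C, luminal factors, moved by 0.18 and -0.13 on the log2 scale and did not pass.

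In MDA-MB-453, where 1.49% of all genes were called and 10.5% had an unadjusted p under 0.05, neither edgeR nor DESeq2 called a gene of the 4 lists. Of 14 desmosome and plakin genes tested 2 had an unadjusted p under 0.05 in edgeR, both lower, as did 1 of 4 cornified envelope genes, higher, 0 of 6 other intermediate filament genes, and 2 of 17 regulators, 1 in each direction. In the interaction test, which took in 15 desmosome and plakin genes, 5 cornified envelope genes, 8 other intermediate filament genes and 18 regulators, 0 genes responded more in MDA-MB-453, against 1.01% of all genes, with 3 regulators at an unadjusted p under 0.05 in edgeR and 0 calls by DESeq2. In the other direction, against 2.36% of all genes, 5 had a lower log2 fold change than in SKBR3: CALML5 (-1.65, edgeR adjusted p = 0.000148), OVOL2 (-0.66, 0.000524), TP63 (-1.64, 0.0264), KLF4 (-0.35, 0.048) and the plakin gene PPL (-0.30, 0.0771). PPL was called in neither line alone, with log2 fold changes of 0.15 in SKBR3 and -0.14 in MDA-MB-453. CALML5 and TP63 were already higher in untreated MDA-MB-453 (247 ± 10.4 and 2.71 ± 0.0621 CPM) than in treated SKBR3.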

How the data were processed

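Counts per gene of 12 RNA-seq libraries (2 lines, 3 untreated and 3 TWEAK-treated replicates each) were analysed. The authors trimmed reads with Trimmomatic, mapped them to hg38 with STAR and counted them with featureCounts; the deposited values are raw counts, not normalised. Versions, strand setting, treatment of multiply mapped reads and annotation release are not given in the sources used here; the study names a directional RNA kit and the labels a DNA library kit. Of 62696 identifiers, 61918 matched GENCODE 44 with version, 707 without and 71 not at all. The keratin genes, classes and partner lists were chosen with earlier results of these data known.

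Each comparison was fitted on all genes passing filterByExpr (minimum count 10) with edgeR 4.0.16 in R 4.3.3 (TMM, quasi-likelihood test, no replicate block), with Benjamini-Hochberg adjustment over all genes tested and a threshold of 0.1; the fits were checked on simulated data. SE is the error of the fitted coefficient under the quasi-likelihood variance, or the Poisson counting error where that was larger; none is given where a group had no count. Levels are CPM with TMM factors over all 12 libraries. Shares and ratios were compared with two-sided exact permutation tests. Count ratios carry exact conditional 95% intervals. Named keratins had a mean of at least 1 CPM in a group or a call in a comparison; of each partner list, per line, up to 3 called genes with the largest and 3 with the smallest change at 1 CPM or more were named. Alternatives were an adjusted p of 0.05, DESeq2 size factors, DESeq2 1.42.0, no filter, at least 10 counts in every library, all 12 libraries in one fit, a replicate block and each library left out. Levels and ratios with the length of all annotated exons were chosen after seeing the data.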

Additional observations from a re-analysis of the deposited data

Results flagged for a closer look

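The TWEAK response of 4 keratins differed between the lines in edgeR's interaction test, in each case being lower in MDA-MB-453. The difference in log2 fold change was -2.64 for KRT2, -1.90 for KRT32, -0.37 for KRT80 and -0.35 for KRT19. KRT2 rose in both lines, whereas the other 3 passed the test in SKBR3 and not in MDA-MB-453. TWEAK replicate 2 was the highest SKBR3 library for KRT19 and KRT32 and the lowest treated one for KRT80.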

How the results depend on the processing

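Counts of keratins called were 11 in SKBR3, 2 in MDA-MB-453, 18 between untreated lines and 4 for the difference in response. Of all genes 10.4%, 1.49%, 87.2% and 3.37% were called. With at least 10 counts in every library, which leaves fewer genes to test, the keratin counts were 7, 1, 8 and 1 (10.2%, 1.45%, 86.3% and 4.66% of all genes). In MDA-MB-453 the count was 1 with all 12 libraries in one fit, and the difference in response was 1 at an adjusted p of 0.05. With each library left out in turn the counts ranged from 10 to 15 in SKBR3, 1 to 4 in MDA-MB-453, 18 to 20 between lines and 1 to 3 for the difference in response. The shares of all genes called ranged in the same order from 5.76% to 17.4%, 0.863% to 13.8%, 85.2% to 86.5% and 2.24% to 6.54%. Deviations of equal replicate numbers correlated weakly (-0.11 to 0.08 in SKBR3 and 0.0012 to 0.051 in MDA-MB-453), and not every sample correlated best with its own number. Such weak values cannot decide whether the numbers pair the samples. A replicate block gave 12, 4, 18 and 2 calls, with 7.73%, 5.99%, 86.6% and 2.45% of all genes called. These were without KRT19 and with KRT17 and KRT24 in SKBR3, and with KRT8 and KRT18 in MDA-MB-453. For the difference in response they were without KRT19 and KRT80. Without the filter on low counts 16, 2, 27 and 3 keratins were called, and of all genes 5.87%, 1.45%, 48.9% and 1.66%. By DESeq2 12, 2, 18 and 4 keratins were called, and of all genes 9.3%, 1.37%, 84.2% and 4.19%. The 4 had KRT16 among them, and KRT32 was left without an adjusted p.

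Of 457 repeats of the 35 called results for named keratins, 409 kept direction and call and 48 kept the direction but lost the call; none reversed. The KRT2 difference in response was lost without untreated MDA-MB-453 replicate 2 (edgeR adjusted p = 0.133). Of 507 repeats of the 34 results not called, 18 became calls and 27 changed sign, the cause not being tested. With each library left out in turn the log2 change in SKBR3 ranged from -0.17 to 0.32 for KRT13, from -0.018 to 0.15 for KRT10, from -0.22 to 0.015 for KRT81, from -0.51 to 0.089 for KRT83 and from -0.13 to 0.10 for KRT86. In MDA-MB-453 it ranged from -0.52 to 0.20 for KRT15, from -0.052 to 0.012 for KRT10, from -0.059 to 0.0048 for KRT19, from -0.0070 to 0.30 for KRT32 and from -0.18 to 0.14 for KRT81, which DESeq2 size factors put at -0.00081. The difference in response ranged from -0.086 to 0.10 for KRT18, from -0.17 to 0.016 for KRT10, from -0.087 to 0.059 for KRT8, from -0.11 to 0.23 for KRT81, from -0.085 to 2.05 for KRT13 and from -0.73 to 0.15 for KRT4. Depth limits the low genes: 3 counts stand for 0.0818 to 0.125 CPM. The 24 genes at this floor in every group were not tested, and a change in them could go undetected. Without the filter on low counts KRT75 was the only one of them called, between the untreated lines (log2 difference 4.69, edgeR adjusted p = 0.00712).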
